A study of Mus musculus with 32 samples.

Results

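Other than ACSS2, which makes acetyl-CoA from acetate, a cell has several enzymes and carriers that make acetyl-CoA or move its acetyl group. The 9 genes described here (Pdha1, Pdhb, Dlat, Slc25a1, Acly, Acss1, Acss3, Crat and Acat1) were taken by gene symbol, of 56415 genes in the count table. Each symbol matched 1 gene, and all 9 passed the filter on low counts in both tissues. The question asked of them was whether their mRNA is higher where Acss2 is knocked out.

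The counts came from polyA RNA-seq of 16 C57BL/6J mice, wild-type (WT) or ACSS2 knockout (KO), with 1 library per mouse from dorsal hippocampus and 1 from cerebellar vermis. All dams were housed with studs for 5 nights and then injected daily until birth. Dams of the prenatal ethanol groups (cPAE) received 3 g per kg ethanol as a 20% solution by volume, and dams of the saline groups (cPSE) received an equal volume of saline. Weaning was at postnatal day 21 in all groups, and tissue was taken between day 40 and day 50. The 8 groups were WT saline, KO saline, WT ethanol and KO ethanol in each tissue, with 4 libraries each, of which F1 and F3 were female and M1 and M3 male. The knockout construct, the litters and the time of day at death are not given in the sources used here, so how far mice of a group shared a litter was not tested. The labels call the replicates biological.

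Acetyl-CoA carries acetyl groups into the citric acid cycle, lipid synthesis, acetylcholine and the acetylation of histones. In mitochondria the pyruvate dehydrogenase complex makes it from pyruvate, and thiolases make it from ketone bodies and fatty acids. It does not cross the inner membrane, so its carbon leaves as citrate or as acetylcarnitine, and in the cytosol ATP citrate lyase turns citrate back into acetyl-CoA. ACSS2 is the route from free acetate in cytosol and nucleus.

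The total count of a library was 54092519 to 96664509 in hippocampus and 23085928 to 73803508 in vermis. Acss2 checked the labels. It was at 10.6 to 13.6 CPM (counts scaled to a common library size) in KO hippocampus against 49.7 to 62.6 in WT, and at 11.03 to 20.4 against 55.9 to 68.4 in vermis. The log2 differences were -2.21 and -1.90 (2-sided exact permutation test of 8 against 8 libraries, p = 0.000155 in each tissue, the smallest the 12870 splits allow). The Purkinje neuron list averaged 7.85 to 9.48 log2 CPM in vermis and 3.15 to 6.12 in hippocampus, and the hippocampal neuron list 5.87 to 6.76 in hippocampus and 1.40 to 3.15 in vermis. The vermis library of KO ethanol F1 stood apart: its granule neuron markers averaged 7.64 against 8.61 to 9.64 in the other 15 vermis libraries, and its myelin markers 9.18 against 7.47 to 8.08. The 8.61 was in KO ethanol vermis too, since every library of the other vermis groups was at 9.12 or above. On the first principal component of the vermis libraries, F1 (99.1) and KO ethanol M3 (65.7) were the highest. Results that rest on KO ethanol F1 are given with and without it. KO ethanol F3 was the shallowest vermis library, with 23085928 counts.

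Compared per length (CPM per kb of exon), Pdha1 was the highest of the 9 genes in both tissues and Acss3 the lowest. In hippocampus the mean level over 16 libraries was 61.1 ± 2.66 (SD) for Pdha1, 28.01 ± 2.10 for Acly, 24.4 ± 1.71 for Pdhb, 24.2 ± 1.42 for Dlat and 20.2 ± 1.07 for Acat1. Below these were Slc25a1 at 11.5 ± 0.91, Acss1 at 7.61 ± 0.65, Crat at 6.53 ± 0.32 and Acss3 at 0.375 ± 0.23. Pdhb and Dlat could not be ordered there, since Pdhb was the higher in 9 of 16 libraries, and the ranges of Acly and Pdhb and of Acss1 and Crat also overlapped. In vermis the order was Pdha1 (49.4 ± 3.35), Acly (31.2 ± 3.79), Pdhb (29.5 ± 1.93), Dlat (23.6 ± 1.13), Acat1 (19.6 ± 1.00), Slc25a1 (9.67 ± 1.84), Crat (8.03 ± 0.69), Acss1 (4.505 ± 0.58) and Acss3 (0.256 ± 0.10). There Acly exceeded Pdhb in only 9 of 16 libraries, and the ranges of Pdhb and Dlat, of Slc25a1 and Crat, and of Crat and Acss1 overlapped. Acss2 itself had a mean level of 5.48 CPM per kb in WT hippocampus, where Acss3 alone was lower. In WT vermis it was at 6.05, where Acss3 and Acss1 were lower. These places depend on the length used, the exon length of the whole gene. For Acss2 it was 10163 bases, against 2931 in its longest coding model, and for Pdhb 3861 against 1513 in its coding model. Before division by length, Acss2 in WT hippocampus (55.7 CPM) lay below Acat1 (75.4) but above Crat (35.2), Acss1 (30.3) and Slc25a1 (25.3). Pdhb then had a lower mean than Dlat (94.3 against 118.1 in hippocampus, 113.9 against 115.3 in vermis).

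**Figure D1:**
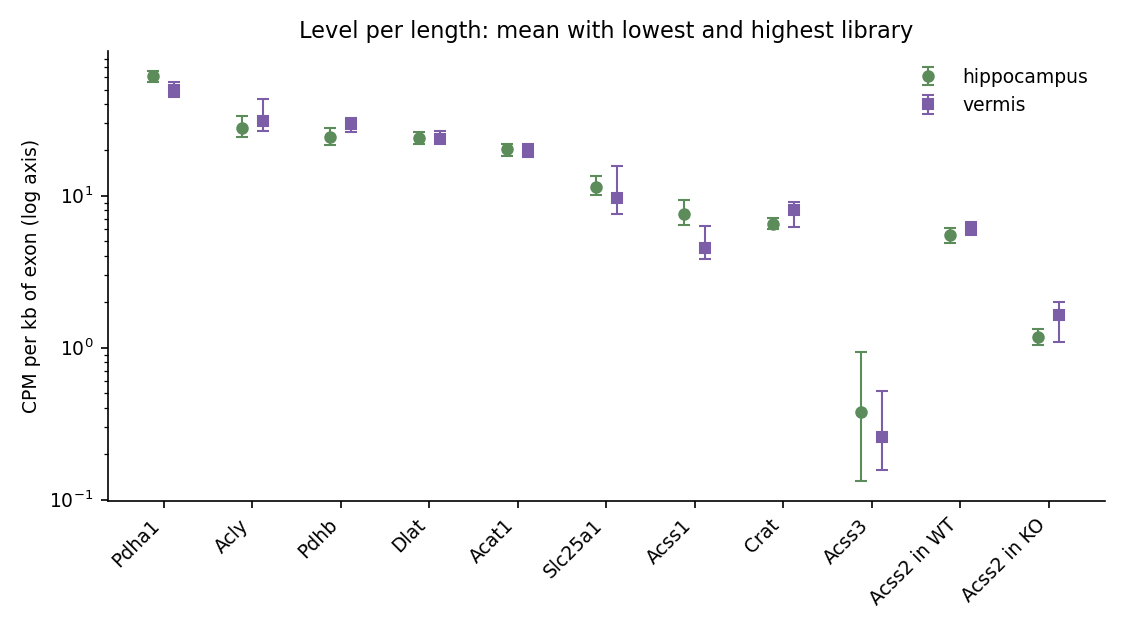
Level of each gene in CPM per kb of exon, on a log axis, as the mean over the 16 libraries of a tissue (8 for Acss2 in each genotype), with bars from the lowest to the highest library. Pdha1 is highest in both tissues, and Acss3 lies below Acss2 in KO.

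No difference between KO and WT was detected for any of the 9 mRNAs in hippocampus. None of the 9 passed the test for KO against WT in saline, in ethanol or as the mean over exposures (edgeR quasi-likelihood test with Benjamini-Hochberg adjustment over 23394 genes, threshold 0.05). The same test called 0.00427%, 0.171% and 0.137% of all genes in these comparisons. At an unadjusted p under 0.05 the count was also 0 of 9 in each, where 8.85%, 9.92% and 8.51% of all genes were. A count of 0 of 9 is near that background. DESeq2 called 0 in each. The median log2 fold change of the 9 was -0.003 for the mean over exposures, against 0.004 over all genes.

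The intervals for the mean over exposures bound the mean difference that the data allow. For Pdha1, Pdhb, Dlat, Crat and Acat1 the mean genotype difference in hippocampus was between -0.01 and 0.01 on the log2 scale. The widest of their 95% intervals, that of Pdhb, ran from -0.10 to 0.11. Within exposures the values of Acat1 and Pdha1 had opposite signs. Acat1 had -0.09 (-0.20 to 0.03) in saline and 0.11 (-0.003 to 0.23) in ethanol, and Pdha1 -0.07 (-0.19 to 0.05) and 0.07 (-0.05 to 0.19). For the mean, Acss1, the mitochondrial acetyl-CoA synthetase that also uses acetate, had the highest estimate (0.10, 95% interval -0.03 to 0.22). Acly had -0.08 (-0.19 to 0.03) and Slc25a1 -0.05 (-0.17 to 0.08). For Acss3 the interval ran from -1.10 to 0.72, so differences of those sizes were not excluded.

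In vermis, 1 of 9 genes passed in each of the 3 genotype comparisons, and each was higher in KO. Pdhb was called in saline and for the mean over exposures, and Acss3 in ethanol. The share of all 22441 genes called was 4.91% in saline, 7.53% in ethanol and 9.2% for the mean, and 4.63%, 5.74% and 7.79% were called higher. A single gene of 9 is near that background. DESeq2 also called 1 of 9 in each. The median log2 fold change of the 9 was -0.09 in saline, 0.08 in ethanol and 0.002 for the mean, against -0.02, 0.03 and 0.005 over all genes. Without KO ethanol F1 the median of the 9 was -0.09, -0.003 and -0.06, against -0.02, 0.02 and -0.008 over all genes. Without KO ethanol F3 the test called 5092 genes in ethanol (1690 with all libraries) and 3486 for the mean (2065). Without WT ethanol F3 or M1 or KO ethanol M3 it called 973 to 1045 in ethanol.

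**Figure D2:**
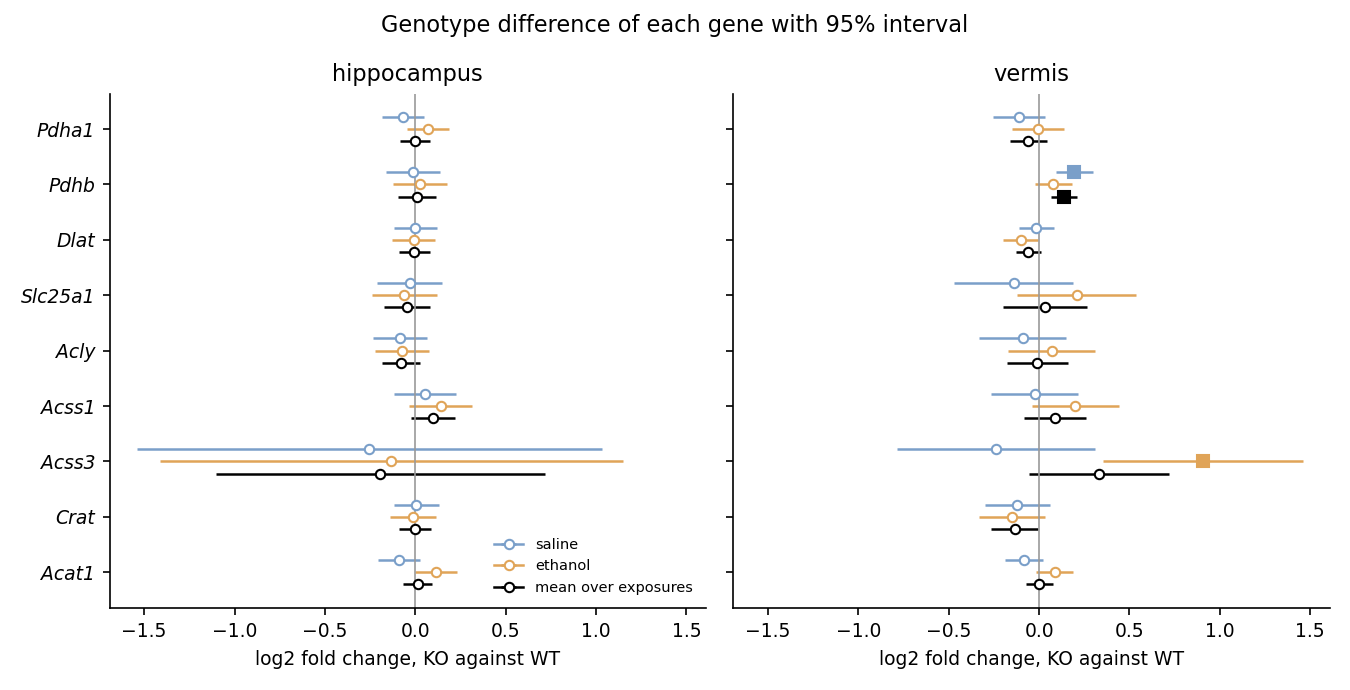
Log2 fold change of KO against WT for each gene in hippocampus (left) and vermis (right), with 95% intervals from edgeR, in saline (blue), in ethanol (orange) and as the mean over exposures (black). Filled squares passed at an adjusted p of 0.05: Pdhb in saline and for the mean, and Acss3 in ethanol, all in vermis.

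**Figure D3:**
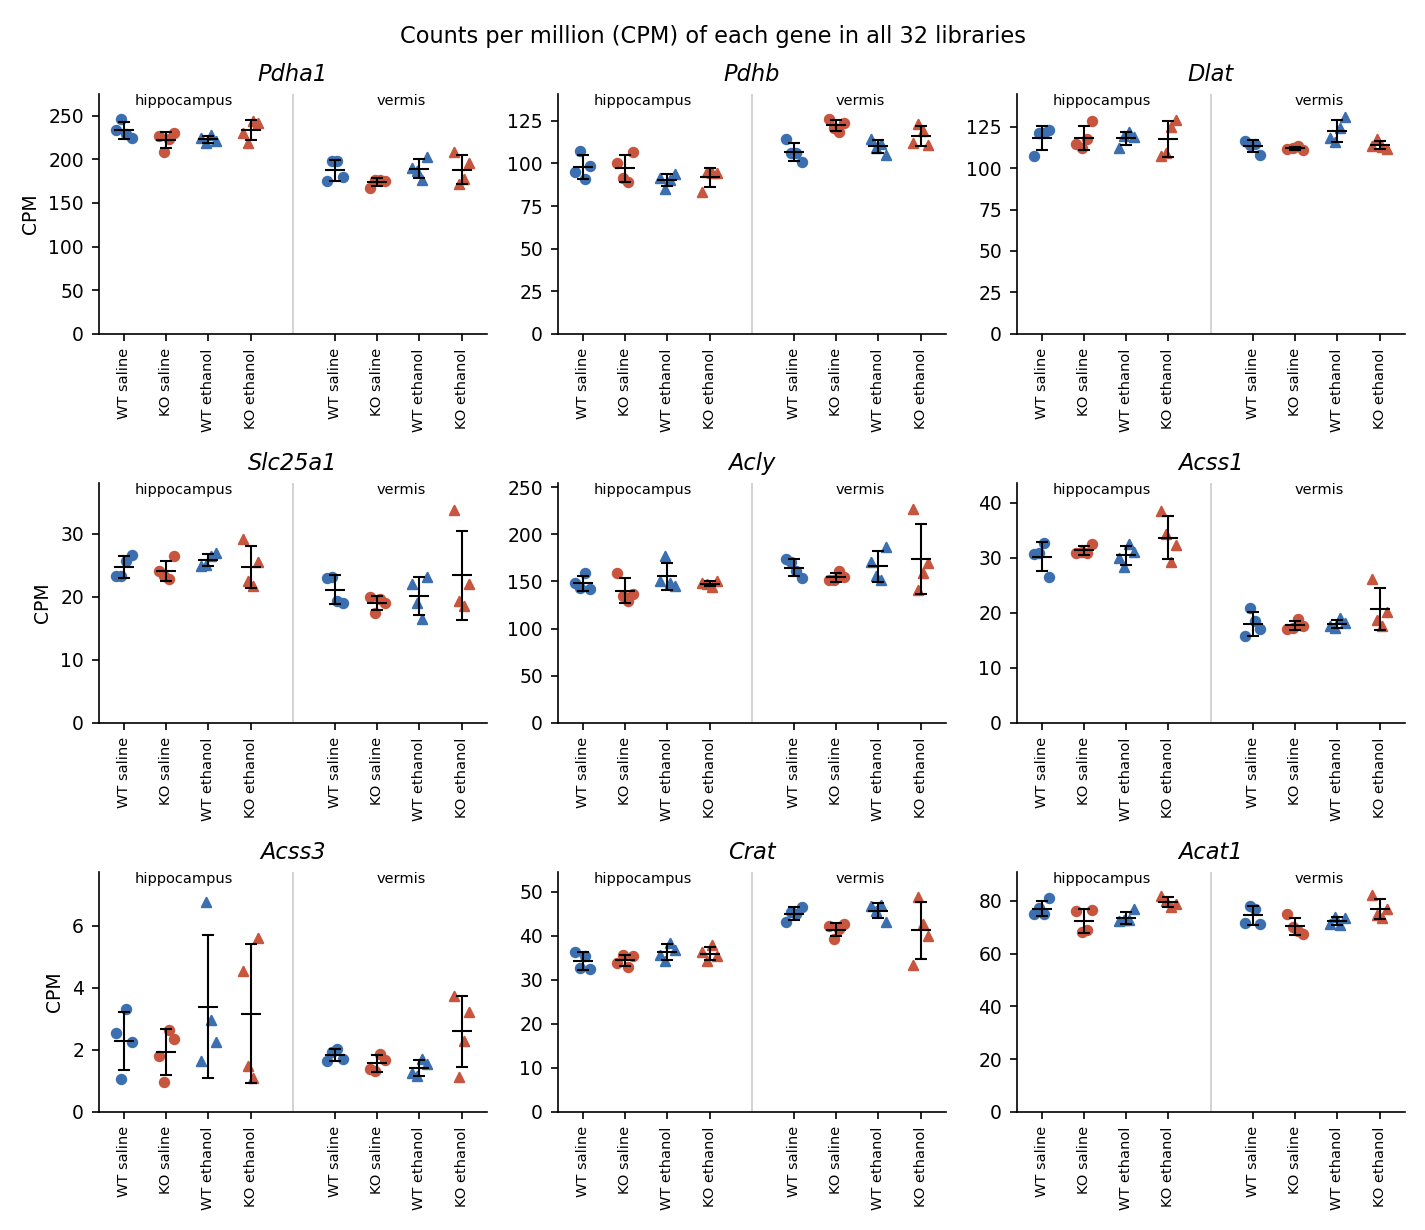
CPM of the 9 genes in all 32 libraries, by group and tissue (WT blue, KO red, saline circles, ethanol triangles), with the mean and SD of 4 libraries. Pdhb in vermis saline is the called difference in which KO and WT libraries do not overlap, and Acss3 varies most between libraries.

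Pyruvate dehydrogenase is built from a decarboxylase, whose alpha and beta subunits are encoded by Pdha1 and Pdhb, and a core of dihydrolipoamide acetyltransferase, encoded by Dlat, which passes the acetyl group to CoA. The genes lie at chrX:158905205-158921409 (Pdha1), chr14:14296748-14303777 (Pdhb) and chr9:50545933-50571080 (Dlat) in GRCm39. Of the 3, Pdhb alone was called in KO vermis. In saline vermis, Pdhb was at 126.1, 120.6, 118.6 and 123.9 CPM in KO (F1, F3, M1, M3) and at 114.2, 106.3, 105.9 and 100.9 in WT. Every KO library lay above every WT library. How many of all genes separate in this way was not counted, and 14% had an unadjusted p under 0.05 in this comparison (edgeR). The fold change was 1.15 (95% interval 1.07 to 1.23), or 0.20 on the log2 scale (adjusted p = 0.0264, edgeR).

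In ethanol vermis, Pdhb was at 111.9, 123.4, 118.9 and 110.9 CPM in KO and at 114.3, 109.3, 111.6 and 105.2 in WT. These ranges overlapped, and the log2 fold change was 0.08 (adjusted p = 0.313). The exposure by genotype interaction of Pdhb was -0.12 (adjusted p = 0.493), so a difference between saline and ethanol was not shown. Over both exposures Pdhb was higher in KO by 0.14 on the log2 scale (95% interval 0.06 to 0.21, adjusted p = 0.0179, edgeR), with 6 of 8 KO libraries above all 8 WT ones. How many of all genes separate to that extent was not counted, and 21.9% had an unadjusted p under 0.05 for the mean (edgeR). Without KO ethanol F1 the mean difference was 0.15 (adjusted p = 0.0076). The saline call was lost without any 1 of WT saline F3, M1 and M3 and the 4 KO saline libraries, at log2 fold changes of 0.16 to 0.21. The call for the mean was lost without any 1 of WT saline F3, M1 and M3, WT ethanol F3, and KO saline F1, M1 and M3, at 0.11 to 0.13, and both were lost without the low-count filter (adjusted p = 0.104 and 0.0877).

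Pdha1, the X-linked alpha subunit, was at 167 to 177 CPM in KO saline vermis and 175 to 198 in WT. Its mean log2 difference over exposures was -0.06 (95% interval -0.16 to 0.04). Dlat was at 111 to 113 CPM in KO saline vermis and 108 to 116 in WT, with a mean difference of -0.06 (-0.13 to 0.01). Both genes had overlapping KO and WT ranges in each exposure and did not pass.

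The ratio of subunit counts within a library does not depend on how libraries are scaled. It was computed after the fold changes had been seen, for 3 pairs of genes in 2 tissues. In vermis the log2 ratio of Pdhb to Dlat was 0.08 ± 0.07 (SD, n = 8) in KO and -0.12 ± 0.09 (n = 8) in WT. The KO libraries ran from -0.018 to 0.18 and the WT libraries from -0.31 to -0.025, with no overlap but a narrow gap. How many other pairs of genes separate in this way was not counted. The difference was 0.20, and 0.21 without KO ethanol F1. The ratio of Pdhb to Pdha1 was also 0.20 higher in KO, with overlap, and that of Pdha1 to Dlat differed by -0.001. In hippocampus the differences were 0.01 for Pdhb to Dlat, 0.007 for Pdhb to Pdha1 and 0.005 for Pdha1 to Dlat, each with overlap. Since these ratios combine differences already seen, they are a description and carry no test.

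**Figure D4:**
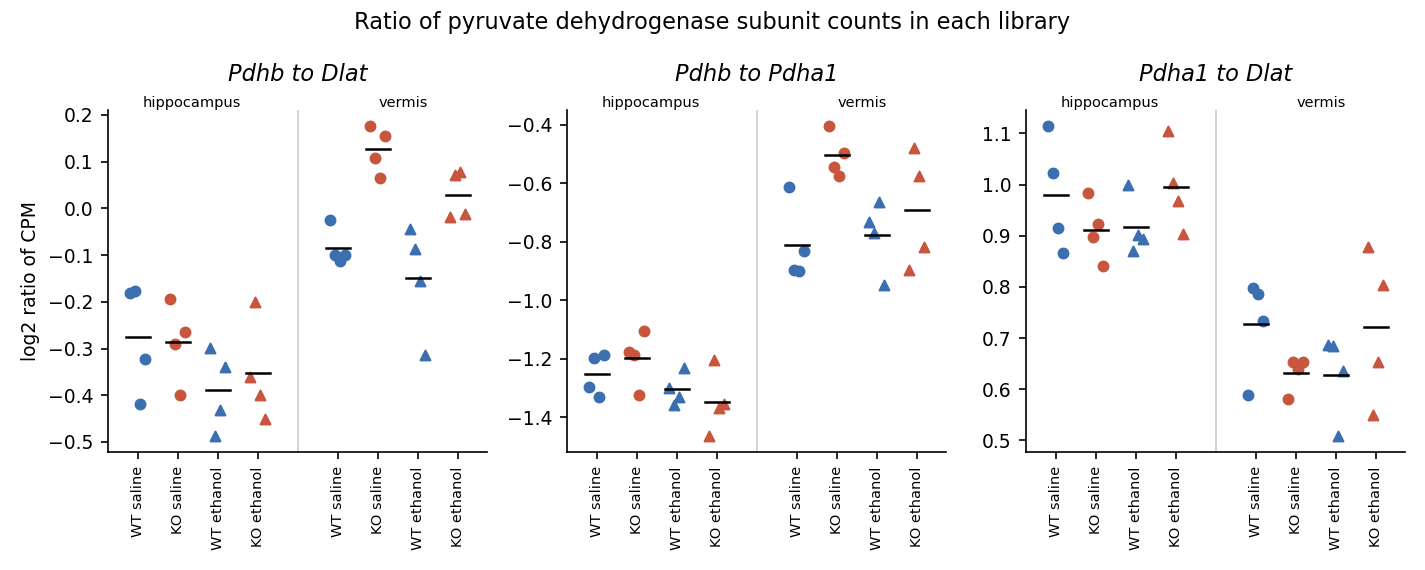
Log2 ratio of CPM between pyruvate dehydrogenase subunit genes in each library, by group and tissue (WT blue, KO red, saline circles, ethanol triangles), with group means as lines. In vermis all 8 KO libraries lie above all 8 WT libraries for Pdhb to Dlat (difference 0.20), and in hippocampus the genotypes overlap. The gap in vermis is narrow, from -0.025 (highest WT) to -0.018 (lowest KO). The ratios were computed after the fold changes had been seen, and how many other gene pairs separate was not counted.

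Where the vermis difference of Pdhb was measured, other groups of genes moved with genotype too. Of 34 nuclear-encoded respiratory chain genes, 31 were higher in KO and 0 lower for the mean over exposures (median log2 fold change 0.50). Of 38 cytosolic ribosomal protein genes, 37 were higher and 0 lower (median 0.79), where 7.79% of all genes were called higher. The respiratory chain list averaged 6.85 to 6.998 log2 CPM in KO vermis and 6.35 to 6.51 in WT, and the ribosomal list 6.67 to 7.05 and 5.97 to 6.19. In hippocampus the median library was at 6.12 in KO and 6.21 in WT for the respiratory chain list, and at 6.25 and 6.28 for the ribosomal list. Their part in the result for Pdhb was not tested. Pdhb and Dlat were the 2 of 9 genes with no adjusted permutation p under 0.05 for any cell type marker list in either tissue. With 16 libraries a tissue this does not show that they are unrelated to cell composition. The part of cell composition in the Pdhb difference was not tested. Pdha1 in vermis went with the neuron list (r = 0.80, rho = 0.80, adjusted permutation p = 0.0069, 0.70 without the 2 farthest libraries). With an offset for transcript length in the fit, Pdhb was higher by 0.25 in saline (adjusted p = 0.0128) and 0.18 for the mean (adjusted p = 0.00524). With the granule neuron marker level as a covariate, added after seeing the data, it was higher by 0.19 (adjusted p = 0.0032) and 0.16 (adjusted p = 0.000815). That fit also called Acly (-0.13, adjusted p = 0.0365) and Pdha1 (-0.11, adjusted p = 0.0459) lower in KO for the mean.

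The 7 transcript models of Pdhb were all higher in KO vermis, at 104% to 115% of the WT mean, and at 99.6% to 102% in hippocampus. This was not particular to Pdhb. In vermis all models of Acss1 (5, at 106% to 115%), Slc25a1 (6, at 100.5% to 110%) and Acss3 (3, at 122% to 130%) were above 100% too. For Acat1 and Acly 1 model each was above 100%, and for Crat, Dlat and Pdha1 0 were. These percentages scale each library by its total count alone. Models share reads, because each read was added to all models it fell on, so these values were not tested.

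The promoter sequences of the 3 subunit genes are shown because they encode parts of 1 complex and Pdhb alone was called. Each is the 250 bases before the start site, 5′ to 3′ on the gene's strand, from RefSeq on GRCm38.p6, an older build than that of the count table. They lie at chr14:8172993-8173242 for Pdhb, chr9:50659781-50660030 for Dlat and chrX:160138431-160138680 for Pdha1, each on the reverse strand. Capitals mark CCAAT, the NF-Y box, and GGGCGG, the Sp1 GC box, on either strand.
Pdhb: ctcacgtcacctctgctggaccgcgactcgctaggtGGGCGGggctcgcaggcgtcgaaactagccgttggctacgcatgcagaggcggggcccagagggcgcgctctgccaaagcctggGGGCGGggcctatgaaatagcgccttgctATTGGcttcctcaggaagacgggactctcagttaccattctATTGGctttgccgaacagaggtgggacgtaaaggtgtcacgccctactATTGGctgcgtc
Dlat: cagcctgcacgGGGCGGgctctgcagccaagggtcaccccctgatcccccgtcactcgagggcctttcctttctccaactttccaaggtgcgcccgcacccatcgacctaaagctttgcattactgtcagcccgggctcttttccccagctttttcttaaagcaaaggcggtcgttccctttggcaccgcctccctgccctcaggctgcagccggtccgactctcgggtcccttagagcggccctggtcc
Pdha1: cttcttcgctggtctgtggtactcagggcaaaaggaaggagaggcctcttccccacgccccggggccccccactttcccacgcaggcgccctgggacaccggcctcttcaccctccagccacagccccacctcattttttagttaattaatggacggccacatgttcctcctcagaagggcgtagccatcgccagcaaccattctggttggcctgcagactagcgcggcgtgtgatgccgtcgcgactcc

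Pdhb held 3 CCAAT boxes, at 101, 60 and 12 bases before the start site, and 2 GC boxes. Dlat held no CCAAT box and 1 GC box, and Pdha1 held neither. At least 1 CCAAT box was found in 33.8% and at least 1 GC box in 32.7% of 32851 promoters of the same length. How many hold 3 CCAAT boxes was not counted. No match to the sterol element TCACNCCAC (1.053% of promoters) or the NRF1 site (3.74%) was found in the 7 promoters that matched, which were those of 6 of the 9 genes and Acss2. No CCAAT match overlapped a GC box, and a match describes the letters only.

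Among 13 partners and regulators of pyruvate dehydrogenase (its other subunits, its kinases and phosphatases, the pyruvate carriers and lipoate enzymes), 2 were higher and 0 lower in KO vermis, and 0 of 13 passed in hippocampus, where 7.79% of all genes were called higher in vermis and 0.137% were called in hippocampus for the mean over exposures. Both were subunits of the mitochondrial pyruvate carrier, which brings pyruvate to the complex. For the mean over exposures Mpc1 was higher by 0.40 (95% interval 0.32 to 0.47) and Mpc2 by 0.38 (0.29 to 0.46) on the log2 scale. Their hippocampal values were -0.11 (-0.23 to 0.006) and -0.001 (-0.12 to 0.12). The median of the list in vermis was -0.01.

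The citrate route carries acetyl carbon out of mitochondria. Slc25a1 is the citrate carrier of the inner membrane, and Acly is the cytosolic ATP citrate lyase (chr16:17743087-17746083 and chr11:100367179-100418826, GRCm39). In vermis, Acly was at 151.4, 151.5, 161.4 and 154.3 CPM in KO saline (F1, F3, M1, M3) and at 174.2, 170.2, 160.7 and 154.0 in WT saline. In ethanol it was at 226.9, 141.3, 158.8 and 170.1 in KO and at 170.4, 155.5, 151.2 and 186.9 in WT. The groups overlapped in both exposures, and KO ethanol F1 was the highest of the 16 libraries. The mean log2 difference was -0.01 (95% interval -0.18 to 0.16), and -0.09 without that library (adjusted p = 0.384).

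Slc25a1 followed the same libraries. It was at 33.8, 19.4, 18.5 and 21.97 CPM in KO ethanol vermis and at 21.9, 19.1, 16.5 and 23.2 in WT ethanol. The saline groups ran from 17.4 to 20.0 in KO and from 19.0 to 23.2 in WT. The mean difference was 0.03 (-0.20 to 0.27), and -0.07 without KO ethanol F1. In hippocampus the groups of both genes overlapped as well.

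Across the 16 vermis libraries log2 CPM of Acly and Slc25a1 correlated (Pearson r = 0.92, permutation p = 5e-05, adjusted over 72 relations 0.0036, Spearman rho = 0.78). The correlation was 0.93 after group means were removed and 0.76 without the 2 libraries farthest from the median of Acly. In hippocampus r was 0.20 (permutation p = 0.454, rho = 0.19, 0.10 without the 2 farthest). In vermis both genes also went with cell type marker levels. In bulk tissue, fewer cells of a type and less RNA per cell cannot be told apart. Against the granule neuron list r was -0.85 for Acly and -0.86 for Slc25a1 (adjusted permutation p = 0.0216 and 0.0171 over 216 relations), with rho of -0.71 and -0.65 (adjusted p = 0.0701 and 0.112). Without the 2 libraries farthest from the median of the list these were -0.62 and -0.60. Against the myelin list r was 0.85 and 0.90. The part of cell composition in the levels of Acly and Slc25a1 was not tested beyond these values.

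The promoters of Acly and Slc25a1, shown because both mRNAs went together across vermis libraries, lie at chr11:100528001-100528250 and chr16:17928220-17928469, both on the reverse strand (RefSeq, GRCm38.p6). Capitals mark the same boxes as above.
Acly: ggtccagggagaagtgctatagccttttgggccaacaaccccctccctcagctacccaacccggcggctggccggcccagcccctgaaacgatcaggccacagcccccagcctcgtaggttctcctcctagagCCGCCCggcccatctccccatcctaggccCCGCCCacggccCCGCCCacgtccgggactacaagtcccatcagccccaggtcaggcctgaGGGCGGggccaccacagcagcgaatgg
Slc25a1: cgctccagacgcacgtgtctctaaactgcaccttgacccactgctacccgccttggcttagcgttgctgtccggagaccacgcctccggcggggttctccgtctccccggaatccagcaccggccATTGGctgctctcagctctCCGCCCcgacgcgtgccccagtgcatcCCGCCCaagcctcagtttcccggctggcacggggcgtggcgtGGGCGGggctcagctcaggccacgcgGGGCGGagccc

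Each held 4 GC boxes, as did the promoter of Acss2, which also held 1 CCAAT box. The other 4 promoters that matched held 0 to 2 GC boxes. How many of all promoters hold 4 was not counted. Slc25a1 also held 1 CCAAT box, at 125 bases before the start site, and Acly held none in this window.

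Of 13 genes of citrate handling, 1 was lower and 0 higher in KO vermis for the mean over exposures, a share near the 9.2% of all genes called. It was Me3, a mitochondrial malic enzyme (-0.12, 95% interval -0.20 to -0.04, adjusted p = 0.0498). None passed in hippocampus. Of 10 genes that use or hydrolyse acetyl-CoA, including Acaca, Fasn and Hmgcs1, 0 passed in any of the 6 genotype comparisons.

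Acss1 and Acss3 are the mitochondrial relatives of ACSS2. Acss1 activates acetate, and Acss3 is known to prefer propionate. In GRCm39, Acss1 lies at chr2:150460025-150510420, on the chromosome of Acss2 (chr2:155359868-155427644), and Acss3 at chr10:106769378-106959529. Acss1 in hippocampus ran from 29.2 to 38.6 CPM in the 8 KO libraries and from 26.4 to 32.7 in the 8 WT libraries, with 2 KO libraries above all WT ones. In vermis it ran from 17.0 to 26.2 and from 15.8 to 20.8, and KO ethanol F1 was again the highest. The mean vermis difference was 0.09 (95% interval -0.08 to 0.26), and 0.02 without that library.

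Acss3 was the least abundant of the 9 genes, at 26 to 417 counts a library. In ethanol vermis it was at 3.72, 1.13, 2.29 and 3.22 CPM in KO and at 1.24, 1.17, 1.69 and 1.55 in WT. Of the 4 KO libraries, 3 lay above every WT library and F3 lay below. The log2 fold change was 0.90 (95% interval 0.35 to 1.46, adjusted p = 0.0462). In saline vermis the direction was not the same: KO was at 1.30 to 1.87 CPM and WT at 1.62 to 2.02, with a log2 fold change of -0.24 (-0.79 to 0.31). The interaction was 1.14 (0.37 to 1.92) and did not pass (adjusted p = 0.319).

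The call of Acss3 was close to the threshold. It was lost with the replicate block (0.86, adjusted p = 0.0705) and in a fit of only the groups compared (0.90, adjusted p = 0.258). It was also lost without any 1 of the vermis libraries other than KO ethanol F3 and M1, at log2 fold changes of 0.81 to 0.96, and without KO ethanol F1 the log2 fold change was 0.56 (adjusted p = 0.204). Without KO ethanol F3 it was 1.11, and then the ethanol effect in KO (0.97, adjusted p = 0.0305) and the interaction (1.34, adjusted p = 0.0382) passed too. With the granule neuron marker level as a covariate the value was 0.29 (adjusted p = 0.554). In KO ethanol vermis the choroid plexus list was at 1.96, 1.76, 0.31 and -0.07 mean log2 CPM (F1, F3, M1, M3). It was at -0.70 to 0.65 in WT vermis and at -0.38 to 1.73 in KO saline vermis. In the same KO ethanol libraries Acss3 was at 3.72, 1.13, 2.29 and 3.22 CPM. Of the 7 genes of the choroid plexus list, 1 was higher in KO ethanol, where 5.74% of all genes were called higher. The part of choroid plexus tissue in the Acss3 values was not tested.

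In hippocampus Acss3 ran from 0.96 to 6.76 CPM, with overlapping groups. It was at 2.55, 1.06, 3.31 and 2.25 CPM in WT saline, 1.80, 0.96, 2.63 and 2.35 in KO saline, 1.63, 6.76, 2.95 and 2.24 in WT ethanol, and 4.53, 1.47, 1.08 and 5.60 in KO ethanol. The choroid plexus list (Ttr, Kl, Folr1 and 4 others), which marks tissue that lies beside the hippocampus, ran from -0.41 to 6.07 mean log2 CPM in these libraries. Across the 16 hippocampal libraries Acss3 correlated with that list at r = 0.92 (permutation p = 1e-05, the smallest that 100000 permutations give, adjusted 0.00216) and rho = 0.96. The value was 0.91 after group means were removed and 0.90 without the 2 libraries farthest from the median of the list. It also correlated with the ependyma list (r = 0.89, rho = 0.95). None of the other 8 genes had an adjusted p under 0.05 with the choroid plexus list, the nearest being Slc25a1 (r = 0.60, rho = 0.44, adjusted p = 0.0742). With the list as a covariate the mean genotype difference of Acss3 went from -0.19 to 0.02.

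**Figure D5:**
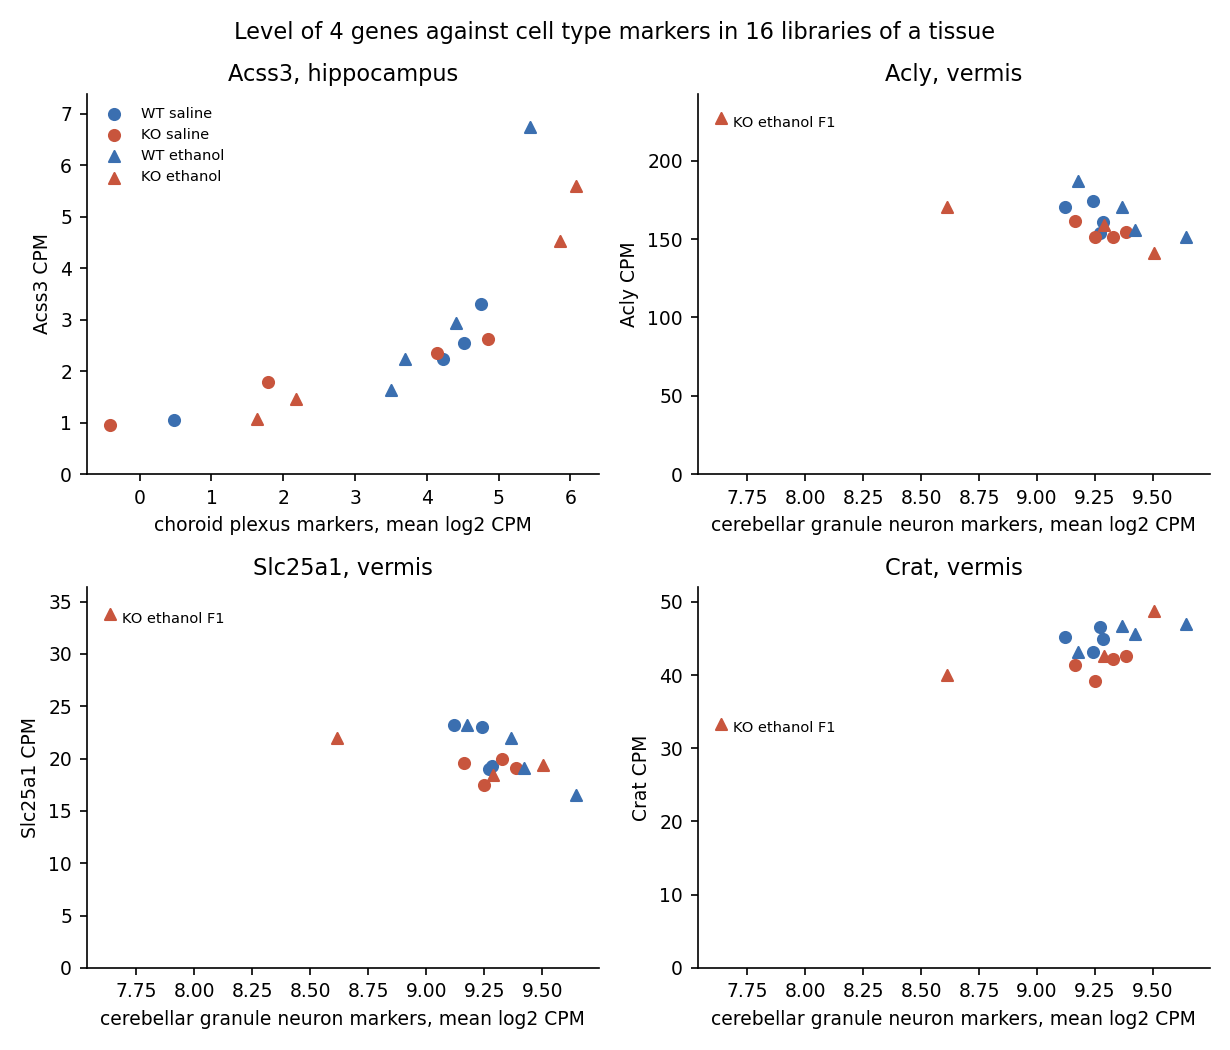
CPM of Acss3 in hippocampus against the mean log2 CPM of choroid plexus markers, and of Acly, Slc25a1 and Crat in vermis against that of granule neuron markers, 1 point a library (WT blue, KO red, saline circles, ethanol triangles). Acss3 is higher where the choroid plexus markers are higher, and KO ethanol F1 lies apart in the 3 vermis panels.

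Of 7 further short and medium chain acyl-CoA synthetase genes, Acss2 included, 4 passed the low-count filter and Acss2 alone was called, lower in KO in both tissues.

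The exons of Acss3 share 2436 bases (33.9%) with exons of Ppfia2 on the opposite strand (GRCm39), a gene with a mean of 9658 counts a library. The strand setting of the counting is not given in the sources used here, so reads of the partner gene cannot be told apart from those of Acss3 in that stretch. Pdha1 shares 16.1% of its exonic bases with Map3k15 (mean 136 counts), Crat 7.63% with Gm16323 (28.1 counts) and 1.095% with Dolpp1 (1090 counts), Dlat 3.07% with a gene without a symbol, and Acss1 2.74% with E130215H24Rik (20.4 counts). Pdhb, Acly, Slc25a1 and Acat1 share none.

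Crat, carnitine acetyltransferase, swaps acetyl groups between CoA and carnitine and so buffers acetyl-CoA (chr2:30290483-30305825, GRCm39). In saline vermis it was at 42.2, 39.2, 41.4 and 42.6 CPM in KO and at 43.2, 45.3, 44.95 and 46.6 in WT. Every KO library lay below every WT library, but how many of all genes separate in this way was not counted. The log2 fold change was -0.12 (95% interval -0.30 to 0.06) and did not pass (adjusted p = 0.621). In ethanol it was at 33.3, 48.8, 42.6 and 40.03 in KO and at 46.7, 45.6, 46.9 and 43.2 in WT, with the lowest KO value in F1 and the highest in F3. For the mean over exposures the difference was -0.14 (-0.26 to -0.01, adjusted p = 0.199). Without KO ethanol F3 it was -0.19 (adjusted p = 0.0119) and the ethanol difference was -0.27 (adjusted p = 0.0164), whereas without F1 the mean difference was -0.09 (adjusted p = 0.276).

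Crat was higher in vermis libraries with higher granule neuron markers (r = 0.85, adjusted permutation p = 0.0113, rho = 0.65, 0.53 without the 2 farthest libraries), opposite in sign to Acly and Slc25a1. With that list as a covariate the mean difference was -0.06 (adjusted p = 0.317). In hippocampus Crat ran from 32.9 to 37.9 CPM in KO and from 32.5 to 38.4 in WT. Of 7 other genes of carnitine acyl transfer, 1 was lower in KO vermis for the mean, Cpt1c, the brain form of carnitine palmitoyltransferase (-0.18, 95% interval -0.27 to -0.08, adjusted p = 0.021), and 0 were higher, near the 9.2% of all genes called.

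Acat1, the mitochondrial acetoacetyl-CoA thiolase, yields acetyl-CoA from ketone bodies and isoleucine (chr9:53491822-53521682, GRCm39). Its mean genotype difference was 0.01 (95% interval -0.07 to 0.10) in hippocampus and 0.002 (-0.07 to 0.08) in vermis. These means join values of opposite sign. In saline the difference was -0.09 in hippocampus and -0.08 in vermis, and in ethanol 0.11 and 0.09, and none of these passed.

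Prenatal ethanol was compared with saline within each genotype. None of the 9 genes passed in WT hippocampus, KO hippocampus, WT vermis or KO vermis (edgeR), where 0%, 0.0513%, 0.00446% and 0.0891% of all genes were called. At an unadjusted p under 0.05 the counts were 0, 1, 1 and 2 of 9, where 10.5%, 9.31%, 5.32% and 13.3% of all genes were, and DESeq2 called 0 in each. None passed for the interaction either (0.175% of all genes called in hippocampus and 0.107% in vermis), with 1 and 2 of 9 at an unadjusted p under 0.05 (9.94% and 11.2% of all genes) and 0 by DESeq2. These counts are near the background.

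Acat1 and Acss3 made up those unadjusted counts in KO and in the interaction, and Dlat that in WT vermis. Acat1 in hippocampus was at 81.9, 80.1, 77.7 and 79.0 CPM in KO ethanol and at 76.3, 68.1, 68.9 and 76.6 in KO saline, and the groups did not overlap. WT ethanol was at 72.2, 72.6, 72.8 and 77.0, also below all KO ethanol libraries. How many of all genes separate in these ways was not counted. The log2 difference of ethanol against saline was 0.14 in KO (95% interval 0.02 to 0.25, adjusted p = 0.470) and -0.07 in WT (-0.18 to 0.05), and the interaction was 0.20 (adjusted p = 0.389). In vermis of the same mice it was 0.13 in KO (0.02 to 0.23, adjusted p = 0.351) and -0.04 in WT (-0.15 to 0.06), with an interaction of 0.17 (adjusted p = 0.405). Across the 16 hippocampal libraries Acat1 correlated with the microglia list (r = 0.68, rho = 0.79, adjusted permutation p = 0.0325). The value was 0.53 after group means were removed and 0.60 without the 2 libraries farthest from the median of the list. The list averaged 5.05 to 5.29 log2 CPM in KO ethanol, 4.90 to 5.08 in KO saline and 4.80 to 5.12 in WT, and its part in the ethanol values was not tested. Neither interaction passed, and the 2 comparisons use 1 set of mice. Dlat in WT vermis was 0.11 higher in ethanol (0.01 to 0.21, adjusted p = 0.905).

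Females and males did not differ in any of the 9 genes by the adjusted test (0.0769% of all genes called in hippocampus and 0.0535% in vermis). The count at an unadjusted p under 0.05 was 1 in hippocampus and 0 in vermis (7.65% and 3.16% of all genes), and DESeq2 called 0 in each. The one was Dlat, lower in females by 0.13 (95% interval of female against male -0.21 to -0.04, adjusted p = 0.568). X-linked Pdha1 had -0.03 (-0.11 to 0.06) in hippocampus and -0.01 (-0.11 to 0.09) in vermis.

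Between the tissues most of the 9 genes differed, as most genes did. With mouse as a block, 8 of 9 passed between vermis and hippocampus, 2 higher and 6 lower in vermis, where 72.6% of 24458 genes were called (34.6% higher and 38% lower). Acss1 differed most (log2 -0.83, 95% interval -0.90 to -0.75), at 15.8 to 26.2 CPM in all vermis libraries and 26.4 to 38.6 in all hippocampal libraries, with no overlap. Acss3 was lower in vermis by -0.49 (-0.86 to -0.12), Pdha1 by -0.38 (-0.44 to -0.31), Slc25a1 by -0.33 (-0.44 to -0.23), Acat1 by -0.11 (-0.16 to -0.06) and Dlat by -0.10 (-0.17 to -0.04). Pdhb was higher by 0.20 (0.15 to 0.26) and Crat by 0.23 (0.14 to 0.31). Thus the alpha subunit gene of pyruvate dehydrogenase was lower in vermis and the beta subunit gene higher. Acly did not pass (0.08, -0.02 to 0.18, adjusted p = 0.125). Leaving out 1 mouse lost the call of Dlat for WT ethanol F1 or F3, KO saline F3, or KO ethanol M1 or M3 (log2 -0.07 to -0.05), and that of Acss3 for WT saline F1 or KO ethanol M3. Leaving out WT ethanol F1 or F3, KO saline F3 or KO ethanol M3 made that of Acly (0.12 to 0.13).

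The genotype difference itself was compared between tissues. None of the 9 passed (4.96% of all genes called), and DESeq2 called 0 of 9. At an unadjusted p under 0.05 the count was 0 of 9, where 16.2% of all genes were. The estimate for Pdhb was 0.12 higher in vermis than in hippocampus (95% interval -0.003 to 0.23, adjusted p = 0.322), so its call in vermis and not in hippocampus does not show a difference between the tissues.

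The genes whose log2 CPM went most closely with each of the 8 genes above 10 CPM, after group means and sex were removed, are given as a description over the 16 libraries of a tissue, with the mean r of both tissues, from 9958 genes. For Pdhb they were Bccip (0.83) and Trappc3 (0.83), for Pdha1 Rab11a (0.90) and Vps41 (0.86), and for Dlat Enox2 (0.72) and Copb2 (0.65). For Acly they were Rbms3 (0.87) and Ctnnbip1 (0.86), and for Slc25a1 Gpx1 (0.86) and Tgfa (0.85). Acss1 went with Asb1 (0.82) and Fech (0.79), Crat with Bcl9l (0.84) and Galt (0.81), and Acat1 with Ndfip1 (0.82) and Psmd1 (0.80). No gene stood in the list of more than 1 of the 8, and Acss3 was below that level.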

How the data were processed

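PolyA RNA-seq was measured in 32 libraries of 16 mice. The deposited tables hold raw counts per gene and per transcript model. The submitters' processing notes name featureCounts 2.0.6, STAR 2.7.10a, cutadapt 5.0, bcl2fastq and DESeq2, and the build GRCm39. Whether counting used strand is not given in the sources used here. The deposited gene and transcript tables also give an exon length, which the authors' counting tool writes. Mates of a pair were counted separately (87.9% of counts from 1 to 20 were even), so counting error is larger than the counts imply. The column names of the deposited tables call the saline control PBS.

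Each tissue's 16 libraries were fitted together in edgeR 4.0.16 (R 4.3.3): filterByExpr by group, TMM scaling, group and sex as terms, robust quasi-likelihood tests, Benjamini-Hochberg threshold 0.05, 95% intervals. Tissues were compared over all 32 libraries with mouse as a block. The fits were also run on simulated counts with known changes, and the share recovered is not reported here. Permutation tests of correlations used 100000 draws (Python 3.11.15, numpy 2.4.6, pandas 2.3.3, scipy 1.17.1), log2 CPM a prior count of 2, and figures matplotlib 3.10.9. No 2 libraries of a group were copies (lowest chi-square per degree of freedom 8.57 over 48 pairs). The smallest p that 8 against 8 libraries allow is 0.000155.

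The 9 genes and the pathway and marker lists were chosen with earlier results of these data known. Named are the 9 genes, Acss2, up to 4 genes per list that passed, and per gene the 2 genes of most like pattern among those of at least 10 CPM. Alternatives were DESeq2 1.42.0, RLE scaling, no filter, the replicate label (M1, M3, F1, F3) as a block in place of sex, no sex term, each library left out, fits of only the groups compared, an offset for transcript length (lowess span 0.3), protein-coding genes only and no mouse block. The covariates of marker levels, the subunit ratios and the correlations without group means were added after seeing the data.

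Promoters came from RefSeq on GRCm38.p6 and matched 6 of the 9 genes. Gene positions are those of the deposited tables (GRCm39). Unannotated tables served for exon positions only. The list of thiolase and ketone body genes is not reported here.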

Additional observations from a re-analysis of the deposited data

Results flagged for a closer look

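Of 72 groups of 4 libraries (9 genes in 8 groups), 4 held 1 library whose gap to the nearest other was above Dixon's 95% critical value as a share of the group's range. Chance gives about 1 in 20 groups. All 4 were in hippocampus. Pdhb was at 83.4 CPM in KO ethanol F1 against 94.6 to 95.1 in the other libraries of its group. Dlat was at 108 CPM in WT saline F1 against 121 to 123. Acat1 was at 77.0 CPM in WT ethanol M3 against 72.2 to 72.8. Acss1 was at 32.6 CPM in KO saline M3 against 30.8 to 31.0.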

How the results depend on the processing

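Over the alternatives run, the log2 fold changes of the 9 genes stayed on their side of the threshold in 3366 values, lost the call in 41 and gained it in 13, and no called value changed sign. Without the low-count filter 1 gene passed for ethanol in KO hippocampus (Acss3, 0.71, adjusted p = 0.0242), and 0 passed for genotype in saline vermis and for the mean. In ethanol vermis 0 passed with the replicate block, with only the groups compared, or with the granule neuron covariate, which gave 3 for the mean. The replicate labels do not pair libraries (median correlation of same-label deviations 0.05 in hippocampus and 0.08 in vermis, lowest -0.27 and -0.31). The replicate block changed 1 call of the 9 genes (Acss3 in ethanol vermis, adjusted p = 0.0705), and the sample labels gave no other pairing within a tissue.

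Leaving out each library gave 0 to 1 genes called in saline vermis, 0 to 2 in ethanol, 0 to 3 for the mean, 0 to 1 for ethanol in KO vermis and for the interaction there, 7 to 8 between tissues, and 0 in the other comparisons. Acss3 had the fewest counts of the 9 genes (26 to 417 a library).

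Counts over all genes moved more. In hippocampus, for genotype in saline, ethanol and mean, ethanol in WT and KO, interaction and sex, edgeR called 1, 40, 32, 0, 12, 41 and 18, DESeq2 195, 233, 180, 128, 113, 272 and 51, and edgeR without the filter 633, 430, 413, 608, 928, 688 and 596. Only the groups compared gave 2 (saline), 8 (ethanol) and 0 (ethanol in KO), the choroid plexus covariate 70 and 3 (ethanol genotype, ethanol in KO), the replicate block 18 (mean), the length offset 25 and protein-coding genes 29 (ethanol in KO), no sex term 23 (interaction), and protein-coding genes 9 (sex). In vermis, genotype gave 1861 in saline with the granule covariate (against 1102), and in ethanol 3013 with DESeq2 and 693 with only the groups compared (against 1690). Ethanol in WT vermis gave 1, against 17 with DESeq2, 4 without the filter, 5 with only the groups compared, 7 with the granule covariate, and 0 without the sex term, with the replicate block or with the length offset. Ethanol in KO vermis gave 20, against 213 with DESeq2, 52 without the filter, 7 with the replicate block, 31 with protein-coding genes, 1 with only the groups compared and 35 with the covariate. The vermis interaction gave 24, against 241 with DESeq2, 53 without the filter, 41 without the sex term, 6 with the replicate block and 57 with the covariate. Sex in vermis gave 12, against 7 with protein-coding genes, and the genotype effect between tissues 1214, against 1823 with DESeq2. Leaving out 1 library gave 1 to 92, 6 to 45 and 3 to 48 genes for genotype in hippocampus (saline, ethanol, mean) and 760 to 1246, 973 to 5092 and 1623 to 3486 in vermis, and 2 to 616 for ethanol in KO vermis. The causes were not tested.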
